A study of Mus musculus with 4 samples.

Results

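The heavy-chain repertoire of tumour-infiltrating B-lineage cells was described from 406 distinct rearrangements, 133 from control mice and 273 from mice lacking Prdm1 in B cells. A rearrangement, called a combination here, was a unique pairing of heavy-chain V gene (IGHV), J gene (IGHJ) and CDR3 nucleotide sequence, counted once per library however many cells carried it. It was read from the heavy-chain contig with the most unique molecular identifiers (UMIs, tags that mark single RNA molecules) of each cell barcode. The V(D)J tables held 907 contigs of heavy and light chains in all, 273 from control and 634 from knockout cells. Of the 139 control and 307 knockout barcodes in them, 135 and 301 had a heavy chain, and the others had a light chain alone.

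MC38 is a mouse colon carcinoma line. It was grown under the skin of female C57BL/6 mice aged 12 to 16 weeks, and tumours were taken on day 18. Controls were Prdm1 f/f, with loxP-flanked alleles and no Cre. Knockouts were Prdm1 f/f CD19cre, in which Cre acts in the B lineage, so that cells of other lineages keep Prdm1. Prdm1 encodes Blimp-1, the transcription factor that plasma cells need to form. Tumours of 11 recipients per genotype were collected, and living B220+ and CD138+ cells were sorted and combined into 1 expression and 1 V(D)J library per genotype. No label tells the mice of a pool apart. Genotype and library therefore cannot be told apart, no test between genotypes was possible, and every interval below is a 95% interval that covers counting error only. PCR reads and cells of a pooled library are not independent animals.

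An antibody heavy chain is assembled during B cell development by joining a V, a D and a J gene segment. The CDR3 spans this junction and is the most variable loop of the antigen-binding site. It is bounded by a cysteine codon from the V gene and a tryptophan codon from the J gene. Naive B cells carry IgM and IgD; class switching replaces them with IgG, IgA or IgE while the V(D)J junction is kept. Somatic hypermutation adds base changes to the V region of antigen-experienced cells. Plasma cells and plasmablasts make far more immunoglobulin RNA than B cells, together with the J chain (Jchain) that links IgM or IgA units.

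The sequences below are CDR3 nucleotides from the deposited contigs, shown for the rearrangements the results turn on: those with the most cells, and the shortest and the longest of each library. Capitals mark the codons of the bounding cysteine and tryptophan.
Control, most cells (IGHV6-3 with IGHJ2, IgM, 3 cells): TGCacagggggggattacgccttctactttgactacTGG
Knockout, most cells (IGHV6-3 with IGHJ3, IgM, 14 cells): TGCacagacccgggttcggtagtgggcTGG
Knockout, next most cells (IGHV1-69 with IGHJ2, IgM, 4 cells): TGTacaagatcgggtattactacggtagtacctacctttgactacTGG
Control, shortest (IGHV1-39 with IGHJ3, IgA): TGTgcaagatatgcttacTGG
Knockout, shortest (IGHV1-19 with IGHJ2, IgA): TGTgcaacccaaccccacTGG
Control, longest (IGHV8-8 with IGHJ4, IgA): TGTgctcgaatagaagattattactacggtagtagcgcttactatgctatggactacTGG
Knockout, longest (IGHV14-2 with IGHJ2, IgA): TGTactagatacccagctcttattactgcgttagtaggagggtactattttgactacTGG
The shortest and longest CDR3 were 7 and 20 amino acids in both libraries, and several combinations tied at each end, 3 control and 4 knockout at 7 and 2 and 3 at 20. Of the tied combinations those with the most UMIs are shown, which in all 4 cases were IgA, while the other tied combinations were IgM. In the control library the combinations with 1 cell each were ordered by UMIs, and the next was an IgA chain of IGHV2-2 and IGHJ4 with 9961 UMIs.
Control, most UMIs (IGHV2-2 with IGHJ4, IgA): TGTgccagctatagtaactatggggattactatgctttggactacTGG
Control, next most UMIs (IGHV8-8 with IGHJ4, IgA): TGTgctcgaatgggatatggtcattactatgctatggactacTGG
No CDR3 was found in both libraries, by nucleotides (0) or by amino acids (0). The V(D)J tables shared 0 cell barcodes and the expression matrices 3.

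The 2 V(D)J libraries differed in depth and in how many B cells gave a heavy chain. Control contigs held 1186037 reads and 404169 UMIs, and knockout contigs 4132489 reads and 25839 UMIs. A control combination had a median of 3.94 reads per UMI, and a knockout combination 238. Every heavy-chain barcode was also listed in the expression matrix of its genotype, which held 816 control and 897 knockout barcodes. Among barcodes with at least 3 UMIs of Cd79a, which encodes a B cell receptor signalling subunit, and under 100 UMIs of Jchain, 90 of 241 control barcodes had a heavy chain (37.3%, interval 31.2 to 43.8%). In the knockout it was 297 of 312 (95.2%, 92.2 to 97.3%). The part of these gaps in the differences below was not tested.

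Heavy-chain barcodes carried B cell RNA. Cd79b had a UMI in 100% of them in both libraries, and Cd79a in 100% of control and 99.3% of knockout barcodes. Among barcodes with the NK cell gene Ncr1 and no contig, Cd79a had a UMI in 0 of 171 in control and 1.02% of 294 in knockout, at median depths of 11802 and 7192 UMIs against 5935 and 2779 in heavy-chain barcodes. T cell gene Cd3e was found in 2.22% and 2.33% of heavy-chain barcodes and macrophage gene Lyz2 in 1.48% and 0.997%. Macrophage gene Csf1r was found in 1.48% and 0.332%, and C1qa in 0.741% and 0%. NK cell gene Ncr1 was found in 0% and 2.99%, Nkg7 in 0% and 4.65%, and Gzma in 14.8% and 5.32%. Apoe, listed with the macrophage markers, was found in 33.3% of control and 56.1% of knockout heavy-chain barcodes, against 28.2% and 10.8% of barcodes without a contig. The part of such RNA in the results was not tested. The libraries differed in antibody-secreting cells, set here as barcodes with at least 100 Jchain UMIs. This limit was chosen after values had been seen and was not scaled to depth. The highest count in a knockout heavy-chain cell was 80 Jchain UMIs. Barcodes at or above the limit numbered 47 in control, 45 of them with a heavy chain, and 0 in knockout. These 45 cells held 98.3% of the 131420 heavy-chain UMIs of the control library, so the isotype, mismatch and UMI results below are also given without them.

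IGHV1, the biggest V gene family of the C57BL/6 locus, made up 76 of 133 control combinations (57.1%, interval 48.3 to 65.7%) and 142 of 273 knockout combinations (52.0%, 45.9 to 58.1%). IGHV2 followed with 8.27% and 9.52%, and IGHV5 with 6.77% and 7.69%. IGHV6 held 4.51% in control and 6.23% in knockout, and IGHV3 held 6.02% and 4.03%. IGHV9 held 5.26% and 4.03%, IGHV8 3.76% and 2.56%, IGHV14 3.01% and 3.66%, and IGHV10 2.26% and 2.56%. IGHV4 had 2 control combinations (1.50%, 0.183 to 5.33%) and 11 knockout combinations (4.03%, 2.03 to 7.10%). Without the secreting cells the control share of IGHV4 was 2.27% and that of IGHV10 1.14%. IGHV7 had 2 control and 9 knockout combinations (1.50% and 3.30%), and IGHV12 had 0 and 1. The intervals of the genotypes overlapped for each of the 12 families found. Within IgM, IGHV1 took 34 of 59 control (57.6%) and 110 of 224 knockout combinations (49.1%). Within IgA it took 24 of 41 (58.5%) and 9 of 12 (75%, 42.8 to 94.5%).

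J gene use was spread over all 4 IGHJ genes of the mouse. IGHJ2 was the most used in both libraries, at 45 of 133 control combinations (33.8%, 25.9 to 42.5%) and 92 of 273 knockout combinations (33.7%, 28.1 to 39.6%). IGHJ4 took 25.6% and 28.2%, and IGHJ1, the J gene nearest to the V genes, 15.04% and 20.1%. IGHJ3 took 34 control (25.6%, 18.4 to 33.8%) and 49 knockout combinations (17.9%, 13.6 to 23.0%). All 4 pairs of intervals overlapped. The order differed by isotype. Control IgM combinations used IGHJ4 in 35.6% (23.6 to 49.1%) and IGHJ2 in 22.0% (12.3 to 34.7%), whereas knockout IgM combinations used IGHJ2 in 34.8% (28.6 to 41.5%) and IGHJ4 in 25.9%. Control IgA combinations used IGHJ2 in 15 of 41 and IGHJ3 in 13 of 41. The 12 knockout IgA combinations used IGHJ2 in 6, IGHJ3 in 5, IGHJ4 in 1 and IGHJ1 in 0. Knockout IgG combinations used IGHJ4 in 14 of 22 (63.6%, 40.7 to 82.8%) and IGHJ2 in 5, whereas control IgG used IGHJ4 in 2 of 9 and IGHJ2 in 4 of 9. Within IGHV1, IGHJ2 was joined in 32.9% of control and 40.8% of knockout combinations.

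**Figure D1:**
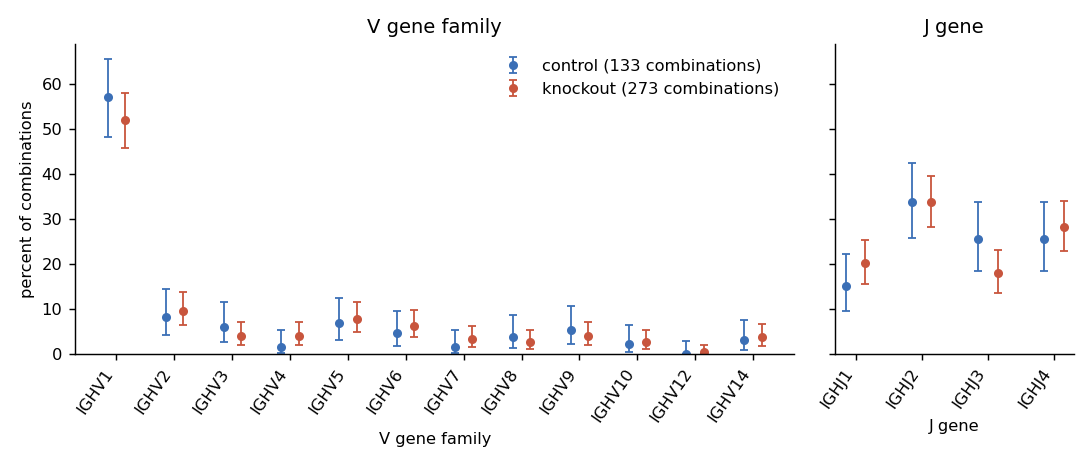
Share of combinations (percent, y axis) by IGHV family and by IGHJ gene (x axis) in the control and knockout libraries, with 95% Clopper-Pearson intervals as error bars. IGHV1 stands at 57.1% in control and 52.0% in knockout, IGHJ2 at 33.8% and 33.7%, and the intervals of the genotypes overlap at each family and J gene.

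At the level of single genes, 68 V genes were used, 48 in control and 63 in knockout, with 43 in both. IGHV1-53 (chromosome 12, 115158445 to 115158835, GRCm38.p6) was the most used, with 8 control and 14 knockout combinations (6.02% and 5.13%). IGHV1-26 (114788372 to 114788665) had 7 and 14, IGHV3-6 (114288152 to 114288447) 8 and 11, and IGHV1-72 (115757984 to 115758277) 6 and 11. IGHV6-3 (114391712 to 114392010) had 4 control and 13 knockout combinations, from 6 and 27 cells. Of the rest of the 12 most used, IGHV1-81 and IGHV9-3 had 5 and 8 each, IGHV1-82 had 4 and 8, and IGHV5-17 had 2 and 8. IGHV1-80, with 3 and 7, tied with IGHV5-17 for the last of these places. No gene held more than 6.02% of the combinations of a library, so use was broad in both by that count. By cells, IGHV6-3 held 27 of 301 in knockout.

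Of 34 V genes with at least 5 combinations over both libraries, 4 (11.8%) had a knockout share at least 2-fold that of control, and 8 (23.5%) had a control share at least 2-fold that of knockout. Past 2-fold in either direction were 12 (35.3%). For these ratios a count of 0 was set to 3 combinations, so IGHV1-58, with 0 control and 6 knockout combinations (0% and 2.20%), was not counted as past 2-fold. Counts of 1 or 2 were left as they were. A control count of 0 thus stood at 2.26%, above the 0.752% of a count of 1. All 4 knockout-higher genes had 1 or 2 control combinations, so their ratios were not held to this limit. Ratios with the limit set for counts of 1 or 2 were not computed. The balance of directions was not stable. With each lineage counted once, 7 genes were knockout-higher and 6 control-higher, with at least 5 UMIs per contig 6 and 6, and without the secreting cells 5 and 6. The knockout-higher genes were IGHV1-9, IGHV2-3, IGHV4-1 and IGHV1-22. IGHV1-9 (114583569 to 114583862) had 1 control combination (0.752%, 0.0190 to 4.12%) and 14 knockout combinations (5.13%, 2.83 to 8.45%), a ratio of 6.82. The IgM lineage of 11 cells shown later supplied 7 of those 14 combinations. Counted by lineage, a grouping by CDR3 likeness defined below, IGHV1-9 had 1 of 133 in control and 8 of 259 in knockout. IGHV2-3 (113611184 to 113611476) had 2 and 12 combinations, a ratio of 2.92, and IGHV4-1 (113948284 to 113948577) had 2 and 11, a ratio of 2.68. IGHV1-22 had 1 and 5. Of the control-higher genes, IGHV1-18 (114682632 to 114682925) had 6 control combinations (4.51%, 1.67 to 9.56%) and 3 knockout combinations (1.10%, 0.227 to 3.18%). IGHV2-2 had 5 and 4, IGHV1-64 had 4 and 3, and IGHV1-50 had 4 and 2. IGHV5-4 and IGHV2-5 had 3 and 3 each, and IGHV5-9 and IGHV8-8 had 3 and 2 each. The genotypes' intervals overlapped for IGHV1-9 and IGHV1-18, and most of these counts are under 6.

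IGHV11-2, IGHV12-3 and IGHV7-1 are textbook V genes of B-1 cells, an innate-like B cell class. IGHV11-2 was found in 0 of 133 control combinations, which allows a share of up to 2.26% by the limit of 3 counts used for a count of 0, and in 0 of 273 knockout combinations, which allows up to 1.10% by the same limit. IGHV12-3 (114366526 to 114366819) had 0 control combinations and 1 in the knockout, from an IgM cell with 29 UMIs. IGHV7-1 (113896408 to 113896946) had 0 and 2, both IgM and joined to IGHJ1. Capitals again mark the bounding codons.
Knockout IGHV12-3: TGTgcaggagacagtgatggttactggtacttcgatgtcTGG
Knockout IGHV7-1, 46 UMIs: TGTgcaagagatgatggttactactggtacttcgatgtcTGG
Knockout IGHV7-1, 19 UMIs: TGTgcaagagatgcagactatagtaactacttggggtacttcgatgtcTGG
RefSeq annotates IGHV7-1 and IGHV7-3 as V segment pseudogenes and the other 66 genes as V segments. IGHV7-3 (114153180 to 114153644) gave 2 control and 7 knockout combinations, which the deposited tables call productive.

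The heavy-chain locus lies on chromosome 12. The V genes lie on 1 side of the J genes and the constant genes on the other, with Ighj1 at 113429781 to 113429833, Ighm at 113418826 to 113422730 and Igha at 113256204 to 113260236 (GRCm38.p6). The used V gene lay a median of 1316 kb from Ighj1 in control (interval 1094 to 1690 kb) and 1154 kb in knockout (1049 to 1316 kb). Genes within 500 kb of Ighj1, mostly IGHV2 and IGHV5, gave 15.04% of control and 17.9% of knockout combinations. The most distant genes, at 2000 kb or more, gave 25.6% and 24.5%. The stretch from 1500 to 2000 kb gave 15.8% and 12.5%. Use thus covered the whole locus in both libraries, with overlapping intervals in all 5 distance classes.

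**Figure D2:**
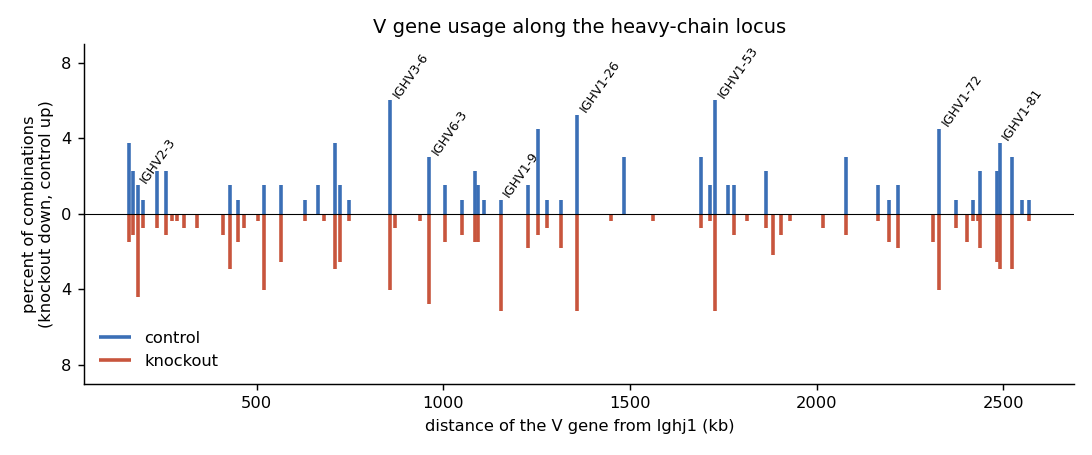
Share of combinations (percent, y axis) for each V gene against its distance from Ighj1 (kb, x axis), with control bars drawn upward and knockout bars downward from 0 and the 8 most used genes named. Both libraries use V genes from under 200 kb to over 2000 kb away, and IGHV1-9 in knockout stands at 5.13% against 0.752% in control. Of the 14 knockout IGHV1-9 combinations, 7 belong to 1 lineage.

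CDR3 length hardly differed. The mean was 13.8 ± 2.63 amino acids in control (SD over 133 combinations) and 13.8 ± 2.57 in knockout (SD over 273 combinations), bounding residues included. The medians were 14 and 14 (intervals 13 to 14 and 14 to 14), the middle 50% of lengths ran from 12 to 15 and from 12 to 16, and both libraries spanned 7 to 20. The most common length was 13 in control, with 27 combinations (20.3%), and 14 in knockout, with 51 (18.7%). CDR3s of 10 or fewer residues made up 13 of 133 (9.77%) and 30 of 273 (11.0%). Those of 18 or more made up 11 (8.27%) and 19 (6.96%).

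Length varied more between J genes than between genotypes. IGHJ4 gave 14.6 ± 2.85 amino acids in control and 14.5 ± 2.23 in knockout. IGHJ1 gave 14.95 ± 2.11 and 14.3 ± 2.42, IGHJ2 gave 13.5 ± 2.45 and 13.2 ± 2.54, and IGHJ3 gave 12.6 ± 2.39 and 13.2 ± 2.95 (all SD over combinations). By isotype, IgM CDR3s were 13.8 ± 2.94 and 13.7 ± 2.62 long, and IgD 14.2 ± 2.39 and 13.7 ± 2.12. IgG CDR3s were 14.1 ± 2.57 and 14.7 ± 1.72, and IgA 13.4 ± 2.52 and 13.5 ± 3.32. Each of these gaps was under 1 SD. By family, IGHV1 gave 13.9 ± 2.53 and 13.8 ± 2.58, IGHV5 gave 14.9 ± 1.90 and 14.4 ± 2.31, and IGHV6 gave 13.2 ± 2.14 and 12.3 ± 2.57.

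**Figure D3:**
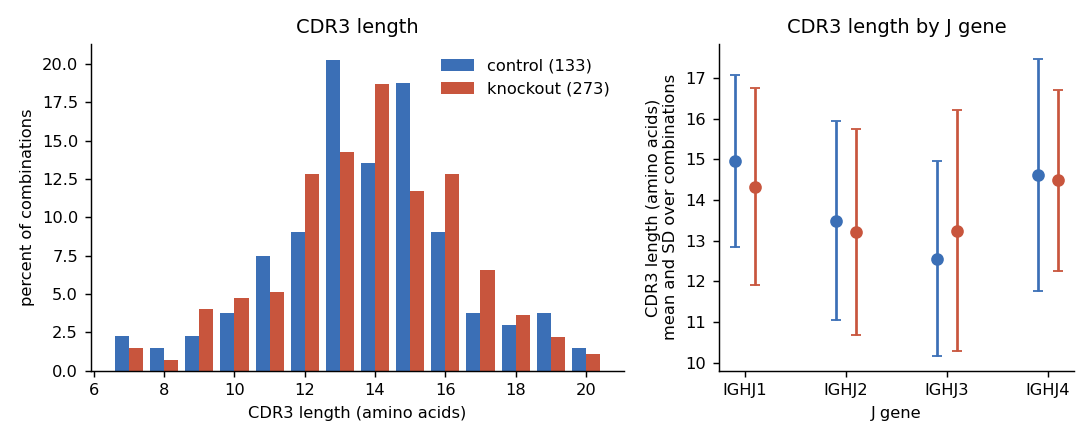
Left, share of combinations (percent, y axis) at each CDR3 length (amino acids, x axis) by genotype. Right, mean CDR3 length by J gene, with bars of 1 SD over combinations, on an axis that does not start at 0. Both libraries span 7 to 20 amino acids, and the IGHJ1 and IGHJ4 means lie above those of IGHJ2 and IGHJ3.

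The residue make-up of the CDR3 was close too. Tyrosine, a residue common in mouse heavy-chain CDR3s, made up 16.8% of residues in both libraries. Net charge, counting lysine and arginine against aspartate and glutamate, averaged -0.39 ± 1.20 in control and -0.41 ± 1.13 in knockout. A net positive CDR3 was found in 33 control (24.8%, 17.7 to 33.0%) and 50 knockout combinations (18.3%, 13.9 to 23.4%). Within IgM the shares were 18.6% and 17.4%, and within IgA 26.8% and 33.3%. A cysteine besides the bounding one was found in 5 control (3.76%, 1.23 to 8.56%) and 2 knockout combinations (0.733%, 0.0888 to 2.62%). A D gene was called in 26 control and 47 knockout combinations, led by IGHD1-1 with 7 and 14. CDR3s with a D call averaged 15.5 and 15.4 amino acids, and those without one 13.3 and 13.5. One knockout IgM CDR3, of IGHV1-82 and IGHJ2, did not end in a tryptophan codon. It is shown as an exception to the bounding rule, in lower case after its capital cysteine codon.
Knockout, no tryptophan end: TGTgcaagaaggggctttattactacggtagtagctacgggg

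The libraries differed in isotype. IgM took 59 of 133 control combinations (44.4%, 35.8 to 53.2%) and 224 of 273 knockout combinations (82.1%, 77.0 to 86.4%). IgA took 41 (30.8%, 23.1 to 39.4%) and 12 (4.40%, 2.29 to 7.55%). IgD took 10 (7.52%) and 15 (5.49%), and IgG took 9 (6.77%) and 22 (8.06%). The IgG calls were IGHG2C 4, IGHG1 3 and IGHG2B 2 in control, and IGHG2B 13, IGHG2C 6 and IGHG3 3 in knockout. In control, 14 combinations (10.5%) had no constant gene call, against 0 in knockout. Their contigs had a median length of 481 bases against 657 for control IgM contigs. In the expression library Ighm led in 11 of these 14 cells, and Igha, Ighd and Ighg2c in 1 each. They count in the isotype shares above but not in the switched shares below.

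Class-switched combinations were 50 of the 119 with a call in control (42.0%, 33.0 to 51.4%) and 34 of 273 in knockout (12.5%, 8.78 to 16.97%). All 41 control IgA cells had at least 100 Jchain UMIs. Without the antibody-secreting cells, 7 of 75 control combinations were switched (9.33%, 3.84 to 18.3%), with 34 of 273 in knockout as before. Below the Jchain limit the intervals of the genotypes overlapped, and 0 control cells carried IgA. The limit took out all 41 control IgA cells and 0 of the 13 knockout IgA cells, so the sets compared are unlike. The proportions in which B220+ and CD138+ cells were combined are not given in the sources used here, and their part in these shares cannot be told apart from genotype. Heavy-chain recovery was uneven within control, where 45 of 47 cells at or above the Jchain limit gave a heavy chain. Of Cd79a barcodes below it, 90 of 241 did, against 297 of 312 in knockout. The part of this gap in the IgA and switched shares was not tested. The 13 knockout IgA cells held 0 to 80 Jchain UMIs, with a median of 1, against 341 to 1972 in the 41 control IgA cells, with a median of 793. These ranges did not overlap. No combination was found in more than 1 isotype (0). The constant gene with the most UMIs in the expression library matched the contig's call in 108 of 121 control and 248 of 301 knockout cells, and in 41 of 41 and 12 of 13 IgA cells. For IgD it matched in 4 of 10 and 4 of 15 cells, most of the others being led by Ighm. For IgG it matched in 3 of 3 IGHG1, 2 of 2 IGHG2B and 1 of 4 IGHG2C cells in control, and in 8 of 14 IGHG2B, 4 of 6 IGHG2C and 2 of 3 IGHG3 cells in knockout. Of the unmatched IGHG2B and IGHG2C cells, Igha led in 2 control and 4 knockout cells.

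Median UMIs per heavy-chain contig were highest for control IgA. All control IgA cells had at least 100 Jchain UMIs, so isotype and secretion cannot be told apart in them. In control, IgA contigs had 263 to 9961 UMIs (median 2389, interval 1916 to 3054), and IgM contigs 5 to 603 (median 20, 17 to 25). In knockout, IgA contigs had 7 to 356 UMIs (median 49.5, 16 to 104) and IgM contigs 2 to 167 (median 17, 15 to 18). Only 1 knockout IgA contig, at 356 UMIs, reached the range of control IgA. This contig had 26.0 reads per UMI, against a knockout IgA median of 156. By reads it stood at 9259, below the 27814 of the contig with 179 UMIs. It is shown with its neighbour in rank, again with the bounding codons in capitals.
Knockout IgA, 356 UMIs (IGHV5-17 with IGHJ4): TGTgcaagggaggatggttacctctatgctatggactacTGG
Knockout IgA, 179 UMIs (IGHV1-22 with IGHJ3): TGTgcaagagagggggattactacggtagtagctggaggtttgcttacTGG
IgG contigs had a median of 35 UMIs in control (12 to 1444) and 18.5 in knockout (10 to 28). Without the secreting cells the control IgG median was 23 UMIs (11 to 66) and 130 reads. The control IgM median was then 19.5 UMIs (17 to 25), with an interval that overlapped that of IgG. IgD contigs had medians of 9.5 and 10 UMIs. Control cells below the Jchain limit had a median of 17 UMIs (14 to 21, lowest 5), and knockout cells 17 (15 to 18, lowest 1). The libraries differed in reads per UMI and in heavy-chain recovery, as given above. The part of both in these medians was not tested. Reads did not follow UMIs across libraries. IgM contigs had a median of 89 reads in control (67 to 118) and 3866 in knockout (3476 to 4259), whereas IgA contigs had 7622 and 6933. Each IgM UMI was thus read 4.33 times in control and 235 times in knockout.

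**Figure D4:**
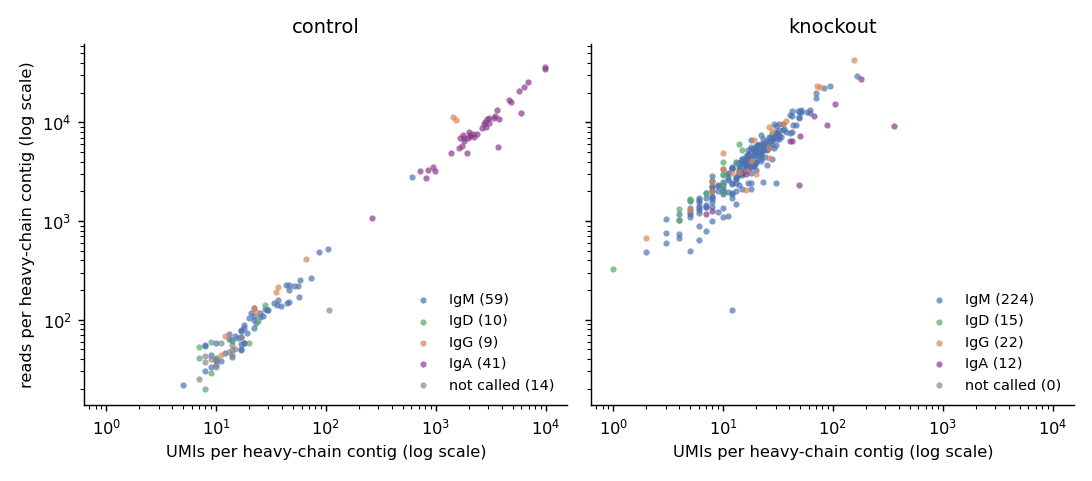
Reads (y axis, log scale) against UMIs (x axis, log scale) per heavy-chain contig, control left and knockout right, with 1 point per combination coloured by isotype. Control IgA points lie at 263 to 9961 UMIs and knockout IgA points at 7 to 356, while IgM medians are 20 and 17 UMIs but 89 and 3866 reads.

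V region differences from a common sequence were counted over framework 1 to framework 3, a median of 285 bases. Each V gene's reference was its most frequent sequence, provided that at least 2 unrelated groups of cells shared it. This gave a reference for 50 of 68 V genes and values for 126 control and 252 knockout combinations. Hypermutation, alleles, V gene calls between close paralogues and sequencing error cannot be told apart in these counts, which reached 37 in a control IgA combination. IgD combinations had 0 mismatches in all 10 control and all 15 knockout cases. IgM combinations had 0 mismatches in 73.7% of control and 72.5% of knockout cases, and 2 or more in 11 of 57 (19.3%, 10.0 to 31.9%) and 47 of 207 (22.7%, 17.2 to 29.0%). IgG combinations had 2 or more in 5 of 8 and 8 of 20. IgA combinations had 2 or more in 29 of 37 in control (78.4%, 61.8 to 90.2%; median 6) and 6 of 10 in knockout (60.0%, 26.2 to 87.8%; median 2.5). Over all isotypes, 37.3% of control and 24.2% of knockout combinations had 2 or more. Among control cells below the Jchain limit it was 15 of 85 (17.6%, 10.2 to 27.4%), which is below the knockout share with overlapping intervals. Among the 41 assessed combinations of secreting cells, 32 had 2 or more (78.0%).

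**Figure D5:**
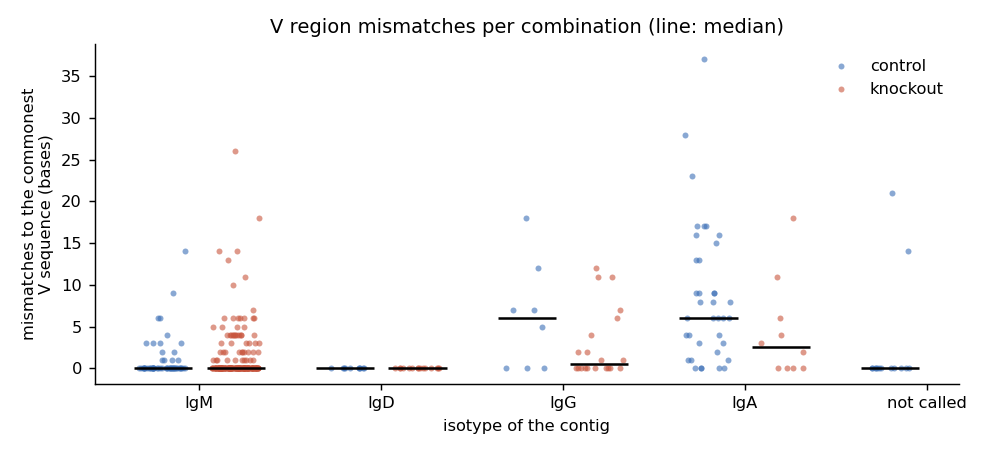
V region mismatches per combination (bases, y axis) by isotype of the contig and genotype, with 1 point per combination, jittered sideways, and a line at each median. IgD points all lie at 0, IgM medians are 0 in both libraries, and IgA medians are 6 in control and 2.5 in knockout.

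Cells were also grouped by the same V and J gene, CDR3 length and at least 85% CDR3 base identity to at least 1 other member, a grouping called a lineage here. Members may thus be chained, and some pairs within a lineage are less alike than 85%. The control had 133 lineages, 1 of them with more than 1 cell, and the knockout had 259, 15 of them with more than 1 cell. Cells in such lineages were 3 of 135 in control (2.22%, 0.461 to 6.36%) and 57 of 301 in knockout (18.9%, 14.7 to 23.8%). These intervals treat cells of the same lineage as independent. Counted by lineage, the shares with more than 1 cell were 0.752% in control (0.0190 to 4.12%) and 5.79% in knockout (3.28 to 9.37%). The intervals by lineage overlapped. The libraries differed in the number of cells seen, and in recovery as given above. The part of both in the shares by cell and by lineage was not tested. The control lineage of 3 IgM cells, IGHV6-3 with IGHJ2, had 3 V sequences with 1 to 5 mismatches. The biggest knockout lineage, IGHV6-3 with IGHJ3, had 15 IgM cells with 6 V sequences and 1 to 10 mismatches. IGHV1-58 and IGHV1-69, both with IGHJ2, followed the IGHV1-9 lineage with 5 and 4 IgM cells. The other 11 had 2 cells each: 9 were IgM, 1 was IgA (IGHV1-26 with IGHJ2) and 1 was IgG (IGHV5-9 with IGHJ2). In the 2-cell pairs IGHV1-53 with IGHJ4 and IGHV2-3 with IGHJ4, the CDR3s differed by 6 and 5 bases although the V regions had 0 mismatches. Whether such pairs share an ancestor was not tested. No lineage held more than 1 isotype (0).

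The IGHV1-9 lineage with IGHJ2 had 11 IgM cells in the knockout, 7 CDR3 variants, 9 V sequences and 3 to 18 V mismatches. Its CDR3s are shown because they differ within 1 V, J and length class. Capitals mark the bases that differ from the first variant, which had the most cells.
Variant 1 (3 cells): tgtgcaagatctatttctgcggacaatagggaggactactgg
Variant 2 (2 cells): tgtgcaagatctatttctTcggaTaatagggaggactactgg
Variant 3 (2 cells): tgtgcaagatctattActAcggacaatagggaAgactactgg
Variant 4 (1 cell): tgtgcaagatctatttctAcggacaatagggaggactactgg
Variant 5 (1 cell): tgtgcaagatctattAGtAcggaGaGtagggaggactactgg
Variant 6 (1 cell): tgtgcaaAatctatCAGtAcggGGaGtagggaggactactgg
Variant 7 (1 cell): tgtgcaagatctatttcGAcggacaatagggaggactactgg
The variants differed from the first by 1 to 8 bases. The IGHV6-3 lineage had 1 cell that differed from the other 14, and the IGHV1-58 lineage split into 3 and 2 cells.
IGHV6-3 lineage, 14 cells: tgcacagacccgggttcggtagtgggctgg
IGHV6-3 lineage, 1 cell: tgcacagacccgggtAcggtagtgggctgg
IGHV1-58 lineage, 3 cells: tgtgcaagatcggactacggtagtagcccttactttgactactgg
IGHV1-58 lineage, 2 cells: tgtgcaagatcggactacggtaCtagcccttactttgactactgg
None of the cells in these 3 lineages had more than 0 Jchain UMIs.

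IgM cells with and without V mismatches differed in RNA of B cell state genes in both libraries. The comparison took IgM cells under 100 Jchain UMIs with 0 mismatches (41 control and 154 knockout cells) and with 2 or more (12 and 68 cells). They are called matched and mismatched cells below. Their median depths were 3342 and 7316 UMIs per cell in control and 2638.5 and 2991 in knockout. Values are CPM, UMIs of a gene scaled to the same total of UMIs, summed over the cells of a library, with exact Poisson intervals. These intervals treat UMIs as independent and do not cover the spread between cells. The 68 knockout mismatched cells came from 36 lineages. Fcer2a, which encodes the low-affinity IgE receptor CD23 of follicular B cells, stood at 377 CPM in matched control cells (288 to 484) and had 0 UMIs in mismatched ones. In knockout it stood at 202 CPM (165 to 244) and 4.52 CPM (0.114 to 25.2). Ighd, the IgD constant gene, stood at 309 and 20.7 CPM in control and at 287 and 22.6 CPM in knockout. Both genes were thus lower in mismatched IgM cells in both libraries.

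S100a6 and Fcrl5 were higher in the mismatched IgM cells by CPM. S100a6, a calcium-binding protein gene, stood at 173 CPM in matched (115 to 250, from 28 UMIs in 3 of 41 cells) and 839 CPM in mismatched control cells (666 to 1043, from 81 UMIs in 4 of 12 cells), and at 346 and 1668 CPM in knockout. The shares of control cells with a S100a6 UMI had overlapping intervals (1.54 to 19.9% and 9.92 to 65.1%). In knockout the shares were 24.7% (18.1 to 32.3%) and 67.6% (55.2 to 78.5%). Fcrl5, a receptor of innate-like and memory B cells, stood in control at 24.7 CPM (6.74 to 63.3, 2 of 41 cells) and 145 CPM (79.3 to 243, 9 of 12 cells). In knockout it stood at 80.0 (57.6 to 108) and 176 CPM (125 to 241). Zbtb32, a transcription factor gene of memory B cells, stood at 37.1 and 114 CPM in control, with overlapping intervals, and at 34.3 (20.3 to 54.2) and 122 CPM (80.4 to 178) in knockout. Cr2, which encodes the complement receptor CD21, stood at 92.7 CPM and 0 UMIs in control, and at 76.1 (54.4 to 104) and 40.7 CPM (18.6 to 77.2) in knockout, where the intervals overlapped. Plac8 was at 1131 and 2134 CPM in control but at 1188 and 1125 CPM in knockout. Cd80, Bcl6 and Mki67 were between 4.52 and 37.1 CPM in all 4 groups. Counting only cells that were the sole member of their lineage left 10 control and 26 knockout mismatched cells. In those, Fcer2a had 0 UMIs in both libraries, and S100a6 stood at 938 and 1559 CPM.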

How the data were processed

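The deposited V(D)J tables gave read and UMI counts per contig, and the deposited matrices gave UMI counts per gene and barcode. The submitters' processing notes name Cell Ranger 6.0.0 and the mouse build GRCm38 (mm10) for both. From these, heavy-chain combinations, shares and medians were computed in Python 3.11.15 with pandas 2.3.3, numpy 2.4.6 and scipy 1.17.1. Shares have Clopper-Pearson intervals, medians exact order-statistic intervals and CPM values exact Poisson intervals, all at 95%. A count of 0 allows up to 3 counts. All 68 V genes were matched by symbol to RefSeq (GRCm38.p6). No genome was used here, so V mismatches were counted against each gene's most frequent sequence.

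Named were all IGHV families and IGHJ genes, the 12 V genes with the most combinations, up to 10 V genes past 2-fold per direction, 3 B-1 cell genes, and the combinations with the most cells or the shortest or longest CDR3. The lineages, the Jchain limit and the IgM expression genes were chosen after values had been seen. The combinations and lists were chosen with earlier results of these data known. Alternatives counted each cell or each lineage once, used CDR3 amino acids, required 2 or 5 UMIs, or left out barcodes with 2 heavy chains or 100 or more Jchain UMIs. Barcodes were not filtered by a doublet caller. Values of some genes of the IgM list are not reported here.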

Additional observations from a re-analysis of the deposited data

Results flagged for a closer look

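In the knockout library 6 barcodes carried an additional heavy-chain contig beyond the one counted above, against 0 in control. In all 6 both contigs were IgM. The additional contig had 7 to 18 UMIs and the counted one 11 to 35. In 1 of the 6 both contigs used IGHV1-82, and in another the additional contig used IGHV7-1. Their origin was not tested.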

How the results depend on the processing

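Of 500 recomputed values for 56 results, 491 moved by less than their interval or, for counts, by no more than 1.5 times, and 9 moved further. Keeping only barcodes of the expression matrix gave 56 of the 491 values and could move no result, because every heavy-chain barcode was in it. Requiring 2 UMIs or using CDR3 amino acids moved no result that far. Neither did leaving out the barcodes with more than 1 heavy chain or taking the highest cell of a combination. Control contigs had at least 5 UMIs and 0 control barcodes had 2 heavy chains. The UMI and 2-heavy-chain alternatives could therefore remove no control contig. Requiring 5 UMIs took the knockout-higher V genes from 4 to 6 and the control-higher from 8 to 6. Counting each cell once raised the knockout IGHV6 share from 6.23 to 10.3% and the knockout share of IgM with 2 or more V mismatches from 22.7 to 29.2%. Counting each lineage once raised the knockout-higher V genes from 4 to 7 and lowered the control-higher from 8 to 6, so the balance turned. Counting each cell once gave 6 and 8, and leaving out the secreting cells 5 and 6. With only IgM combinations, control IGHJ2 stood at 22.0% and IGHJ4 at 35.6%, control IGHV9 at 1.69%, and the control-higher V genes numbered 4. Without barcodes of 100 or more Jchain UMIs the control switched share was 9.33% in place of 42.0%, and no control IgA contig remained to give UMI or read values. The mean knockout CDR3 length was 13.8 against a median of 14. The lineage, 5-UMI and IgM-only alternatives were chosen after seeing the data. V mismatches against a germline genome were not run. With 1 library per genotype, no replicate could be left out. No paired analysis was possible because no result comes from a test.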
